A study of Mus musculus with 8 samples.

Results

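Serpins are a family of protease inhibitors, and the liver is the main source of those that circulate in blood. The members described here were all protein-coding genes of the mouse genome (mm10) whose symbol begins with Serpin, together with the open-chromatin regions that lay nearest to them. There were 63 such genes among 21900 protein-coding genes, with 24 in clade a, 28 in clade b and 11 in clades c to i. A region was given to the nearest protein-coding gene, measured to the gene's span with a limit of 100 kb. By this rule 99 of 49587 consensus regions belonged to a Serpin gene, 62 in clade a, 14 in clade b and 23 in clades c to i.

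The regions came from ATAC-seq, in which a transposase cuts and tags DNA wherever chromatin is open, so that a peak of reads marks an accessible site. Livers were flash-frozen from 9-week-old male C57BL/6 mice after a fast of 24 h, which all animals shared. The 4 genotypes, with 2 libraries each, were WT (wild type), Cpt2 L-/- (liver knockout of Cpt2), Ppara -/- (knockout of Ppara) and Cpt2 L-/- ; Ppara -/- (double knockout, in which Ppara was lost in the whole body). Cpt2 encodes a mitochondrial enzyme needed to burn long-chain fatty acids, and Ppara encodes the nuclear receptor that switches on fat-burning genes in fasting. The Cre driver of the Cpt2 deletion and whether a library is 1 animal or a pool are not given in the sources used here, so the spread between the 2 libraries of a genotype may be technical. Wild type and Cpt2 knockout are called Ppara-intact below, and Ppara knockout and double knockout Ppara-null.

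A serpin presents a flexible loop that a protease cuts as if it were a substrate, after which the serpin changes shape and holds the protease fast. Clade a holds secreted plasma proteins such as alpha-1-antitrypsin, antichymotrypsin and the hormone carriers for cortisol-like steroids and thyroxine. Clade b inhibitors mostly act inside cells, and clades c to i include the main brakes on clotting, fibrinolysis and the first complement protease. In mice the alpha-1-antitrypsin gene is present as several near-identical copies side by side, Serpina1a to Serpina1e, and the antichymotrypsin gene as a longer run of copies, Serpina3a to Serpina3n.

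The promoters of the Serpina1 copies are shown first, because reads from such similar sequences are hard to place and because 4 of the 5 carried a peak in every library. Each line gives the RefSeq window on GRCm38.p6, the assembly of mm10, from 250 bases before to 50 bases after the annotated start, all on the minus strand of chromosome 12. Capitals mark a run of 59 bases that is identical in all 5. In genome coordinates the windows are chr12:103863570-103863869 for Serpina1a, chr12:103738140-103738439 for Serpina1b, chr12:103904901-103905200 for Serpina1c, chr12:103773584-103773883 for Serpina1d and chr12:103956848-103957147 for Serpina1e.
Serpina1a: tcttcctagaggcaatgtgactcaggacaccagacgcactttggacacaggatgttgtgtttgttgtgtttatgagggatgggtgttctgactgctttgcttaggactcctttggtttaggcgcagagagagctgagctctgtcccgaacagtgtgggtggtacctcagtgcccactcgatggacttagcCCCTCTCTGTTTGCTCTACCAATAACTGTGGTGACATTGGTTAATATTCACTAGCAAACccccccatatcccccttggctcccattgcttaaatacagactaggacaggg
Serpina1b: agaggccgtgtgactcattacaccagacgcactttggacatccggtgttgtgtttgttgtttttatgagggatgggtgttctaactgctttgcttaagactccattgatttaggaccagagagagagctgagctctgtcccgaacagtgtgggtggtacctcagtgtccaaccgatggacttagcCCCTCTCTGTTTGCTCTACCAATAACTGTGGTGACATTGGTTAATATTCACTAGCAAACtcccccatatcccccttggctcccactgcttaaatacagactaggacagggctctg
Serpina1c: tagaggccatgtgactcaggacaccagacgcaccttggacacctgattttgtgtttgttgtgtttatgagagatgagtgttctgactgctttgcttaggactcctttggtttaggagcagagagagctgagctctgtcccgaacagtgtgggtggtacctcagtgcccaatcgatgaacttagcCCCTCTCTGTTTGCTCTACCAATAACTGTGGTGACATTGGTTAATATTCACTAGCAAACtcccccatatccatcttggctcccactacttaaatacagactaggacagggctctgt
Serpina1d: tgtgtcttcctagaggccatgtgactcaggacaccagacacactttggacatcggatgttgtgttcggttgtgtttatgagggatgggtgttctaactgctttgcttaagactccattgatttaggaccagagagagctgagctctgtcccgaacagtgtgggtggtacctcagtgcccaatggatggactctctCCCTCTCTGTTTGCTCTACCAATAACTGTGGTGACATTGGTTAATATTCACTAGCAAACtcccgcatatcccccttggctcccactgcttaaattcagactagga
Serpina1e: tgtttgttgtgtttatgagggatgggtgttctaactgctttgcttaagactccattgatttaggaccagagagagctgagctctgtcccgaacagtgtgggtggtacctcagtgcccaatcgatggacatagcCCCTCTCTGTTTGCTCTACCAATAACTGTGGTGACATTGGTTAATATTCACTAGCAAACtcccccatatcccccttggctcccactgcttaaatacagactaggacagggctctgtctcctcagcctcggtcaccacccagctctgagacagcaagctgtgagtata

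The aligned parts of these windows were between 91.7% (Serpina1c and Serpina1d) and 98.4% (Serpina1b and Serpina1e) identical in pairs. Within the shared run, the letters TGTTTGC begin at base 8 and GTTAAT at base 40. The first is a form of the FoxA site and the second is a half-site of HNF1, both liver transcription factors, and GTTAAT was searched for after the run had been seen. The run ends 2 bases before the start site in Serpina1a and 59 bases before it in Serpina1e, whose annotated start is placed differently. How reads that match several copies were handled is not given in the sources used here, so values at single Serpina1, Serpina3 and clade b copies are uncertain in their assignment.

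A region counts as called in a library when one of that library's peaks overlaps it by at least 1 bp. For each peak the authors' file gives a fold, the pileup at the summit over the local background of the same library, and a −log10 p-value; both are the authors' values and are used here to describe and rank peaks within a list. Of the 63 genes, 35 had at least 1 region, 17 of 24 in clade a, 9 of 28 in clade b and 9 of 11 in clades c to i. Among the 99 regions, 50 (50.5%) overlapped their gene, 11 lay more than 10 kb away and 4 were equally near to another gene. These 4 overlapped both genes: 2 inside Serpinb6a also Nqo2, the one at the Serpinb6a start also Ripk1, and the one at the Serpind1 start also Pi4ka. The median width was 365 bp, against 381 bp over all regions.

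The share of Serpin regions with a peak was lower in every Ppara-null than in every Ppara-intact library. Wild type libraries called 57 and 73 of the 99 regions, and Cpt2 knockout libraries 78 and 64. Ppara knockout libraries called 38 and 34, and double knockout libraries 41 and 29. The mean share was 68.7% ± 9.43 (SD, n = 4) over Ppara-intact libraries and 35.9% ± 5.25 (SD, n = 4) over Ppara-null libraries, and the groups did not overlap.

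The same was true of all consensus regions, with 69.4% ± 8.84 (SD, n = 4) and 38.9% ± 4.27 (SD, n = 4), and the deposited Ppara-null lists are shorter. Ppara-intact lists held 28733 to 39296 peaks, and Ppara-null lists 18132 to 22715. When each list was reduced to its strongest 18132 peaks by −log10 p, the length of the shortest, the Serpin share was 34.6% ± 4.17 and 34.1% ± 3.45 (SD, n = 4 each). These are called equal-number lists below, and with them the Serpin shares of both groups overlapped. The read depth of the libraries is unknown. Numbers in the peak names differ between Ppara-intact and Ppara-null files, and what they stand for is not stated; if they mark a batch, it and Ppara status cannot be told apart.

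**Figure D1:**
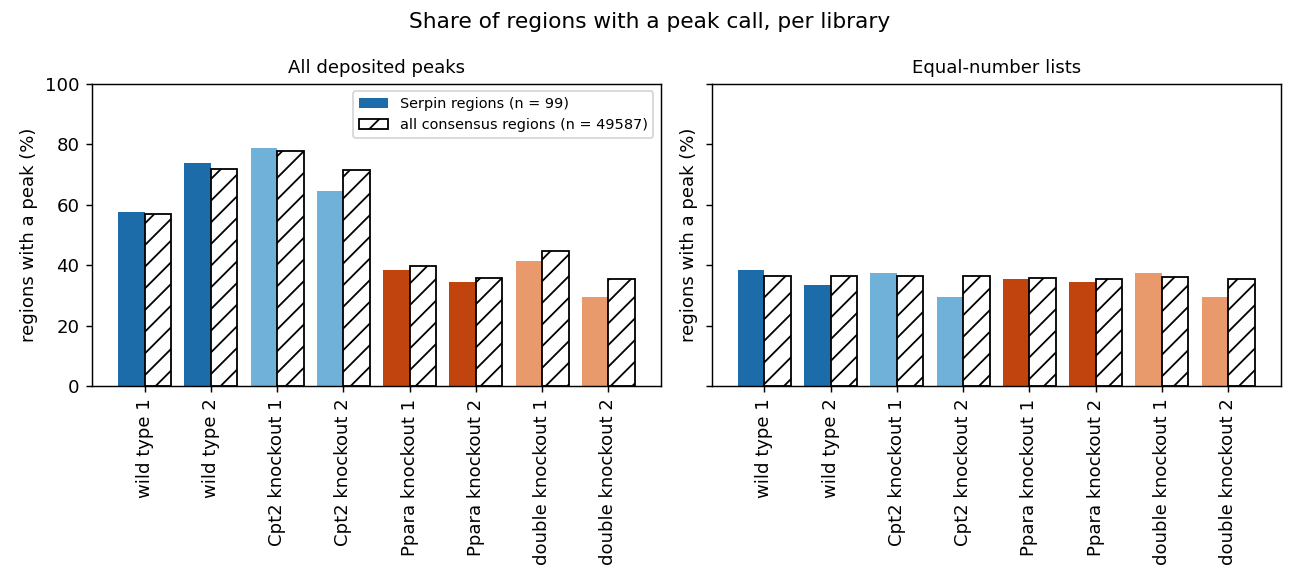
Share of regions with a peak in each library (vertical axis, percent), for the 99 Serpin regions (filled bars, coloured by genotype) and all 49587 consensus regions (hatched bars), from all deposited peaks on the left and from equal-number lists on the right. With all peaks the Serpin bars fall from 57.6% to 78.8% (Ppara-intact) down to 29.3% to 41.4% (Ppara-null), and with equal-number lists all bars lie between 29.3% and 38.4%.

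The labelled tissue was checked against cell type markers. All 8 hepatocyte marker genes (Alb, Ttr, Apoa1, Apob, Hnf4a, Tat, Cps1, Cyp2e1) had a region called in all 8 libraries. Over all consensus regions, 56.9% to 77.7% were called per Ppara-intact and 35.5% to 44.5% per Ppara-null library. Of the 90 hepatocyte marker regions the shares were 57.8% to 72.2% and 45.6% to 52.2%. Near 6 endothelial genes 12 to 28 of 40 regions were called per Ppara-intact and 5 to 7 (12.5% to 17.5%) per Ppara-null library. For 5 cholangiocyte genes 6 to 11 of 13 regions were called per Ppara-intact and 0 to 2 per Ppara-null library, with no region at Krt19 or Krt7. For 5 stellate cell genes it was 2 to 5 and 0 to 1 of 8, with none at Des or Dcn. The 6 Kupffer cell genes had 3 regions, with none at Adgre1, Cd5l, Marco or Timd4. The part of other cell types in the Serpin results was not tested, and in whole tissue fewer cells of a type and less open chromatin per cell cannot be told apart.

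Regions called in all 8 libraries numbered 19 of 99 for the Serpin genes (19.2%), against 22.7% of all consensus regions. Clade a had 10 of 62, clade b 4 of 14 and clades c to i 5 of 23. Among their genes were Serpina1a, Serpina1b, Serpina1c, Serpina1d, Serpina3k, Serpina3m, Serpina6, Serpina10, Serpina12, Serpinb6a, Serpinb8, Serpinb9, Serpinc1, Serpind1, Serpinf2 and Serping1. At the other end, 21 regions (21.2%) were called in a single library, against 23.0% of all regions.

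**Figure D2:**
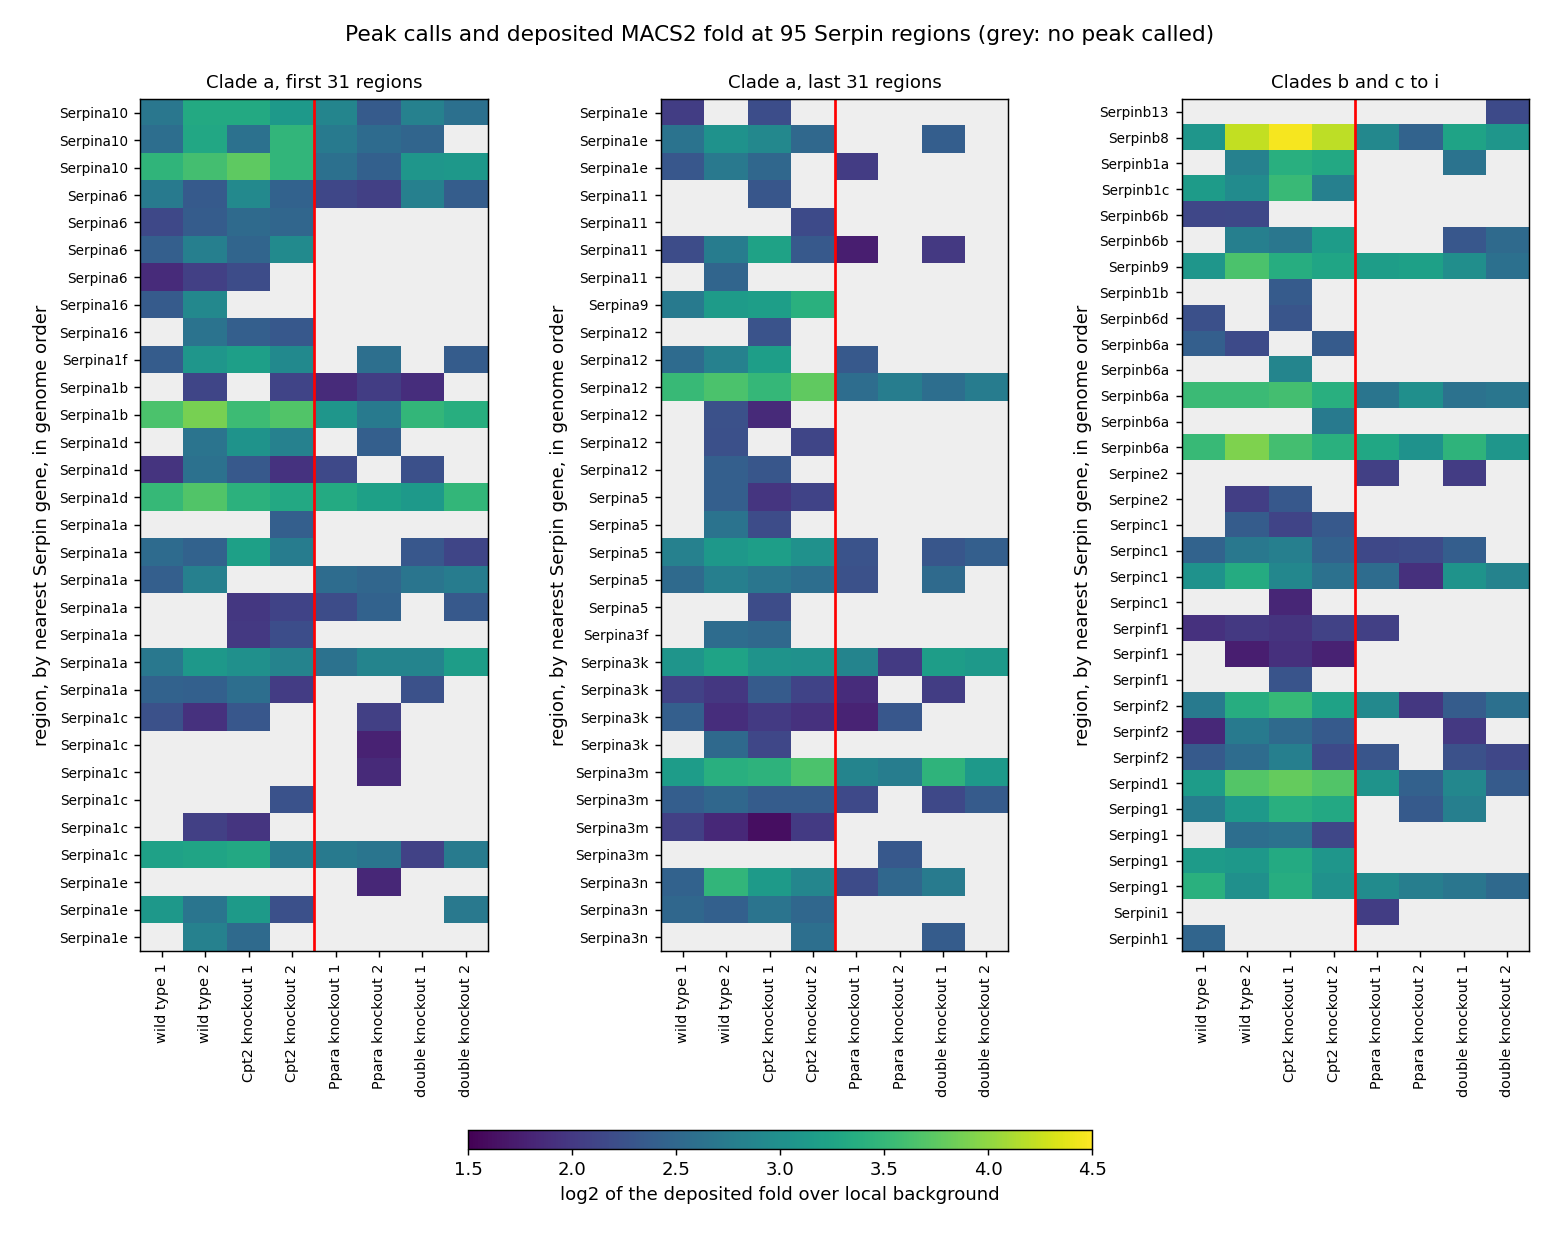
Peak calls at 95 of the 99 Serpin regions (rows, by nearest gene in genome order) in the 8 libraries (columns), coloured by log2 of the deposited fold, with grey where no peak was called; the red line divides Ppara-intact from Ppara-null libraries. Rows filled across all 8 columns are 18 of the 19 regions called in every library, and 7 rows (7.07%, against 6.82% of all regions) are filled in all 4 columns left of the line and in none right of it.

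Clade a is gathered in a cluster on chromosome 12 (mm10), where 23 Serpin genes from Serpina10 to Serpina3n span 798 kb. This stretch held 60 regions, or 7.52 per 100 kb. The wild type libraries called 35 and 47 of them, Cpt2 knockout 48 and 38, Ppara knockout 23 and 22, and double knockout 22 and 16. As shares these were 58.3% to 80.0% per Ppara-intact and 26.7% to 38.3% per Ppara-null library, against 56.9% to 77.7% and 35.5% to 44.5% of all regions. The regions were unevenly spread: the Serpina1b to Serpina1e stretch of 229 kb held 20, whereas the 208 kb from Serpina3a to Serpina3j, with 7 genes, held 1. That region, 3611 bp from Serpina3f, was called in wild type 2 and Cpt2 knockout 1.

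**Figure D3:**
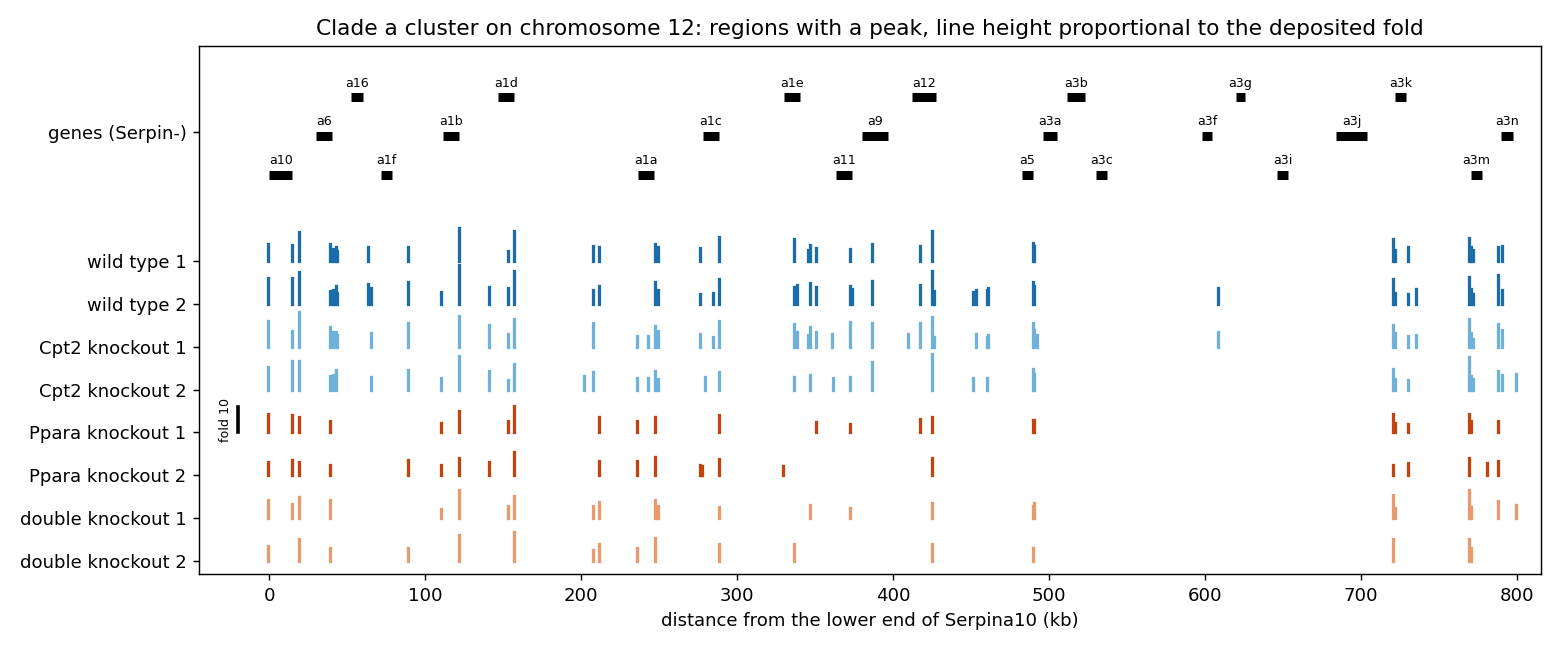
Map of the clade a cluster, with distance from the lower end of Serpina10 in kb on the horizontal axis, genes as black bars at the top and 1 track per library below. Each vertical line is a called region, its height proportional to the deposited fold (scale bar: fold 10). Between Serpina3a and Serpina3j the tracks show 1 region, in wild type 2 and Cpt2 knockout 1.

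The promoters of the alpha-1-antitrypsin copies were open in every genotype at 4 of 5 genes. At Serpina1b, the highest-ranking clade a region, the fold was 12.6 and 14.8 in wild type, 11.8 and 12.9 in Cpt2 knockout, 8.47 and 6.69 in Ppara knockout, and 11.2 and 10.4 in double knockout. At Serpina1d it was 11.4 and 12.8 in wild type, 10.8 and 9.91 in Cpt2 knockout, 10.1 and 9.19 in Ppara knockout, and 8.72 and 11.2 in double knockout. The Ppara knockout libraries were lowest at Serpina1b, and Ppara-intact and Ppara-null folds overlapped at Serpina1d. The median fold over regions called in all 8 libraries was lower in every Ppara-null than in every Ppara-intact library. As percentiles of fold among these regions, Serpina1b was at 72.8 and 56.3 in the Ppara knockouts. In Ppara-intact libraries it was at 53.8 to 82.0.

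At Serpina1a the fold was 6.52 and 8.56 in wild type, 8.04 and 7.16 in Cpt2 knockout, 6.19 and 7.23 in Ppara knockout, and 7.23 and 9.01 in double knockout. At Serpina1c it was 9.33 and 9.55 in wild type, 9.90 and 6.72 in Cpt2 knockout, 6.69 and 6.36 in Ppara knockout, and 4.27 and 6.69 in double knockout. The groups overlapped at Serpina1a, and at Serpina1c Cpt2 knockout 2 was only just above the highest Ppara-null fold of 6.69. Serpina1e, whose window is up to 98.4% identical to the others, had no peak over its window in any library.

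The summits of these peaks lay upstream of the shared run, or at its first base in 2 libraries at Serpina1d. Their distance from the start site was −136 to −105 bp at Serpina1a, −135 to −98 bp at Serpina1c and −88 to −55 bp at Serpina1d. At Serpina1b 5 libraries had summits from −112 to −96 bp, together with Cpt2 knockout 2 at −173 bp and the Ppara knockouts at −216 and −217 bp. The Ppara knockout summits at Serpina1b were thus the farthest from the start site of the 8.

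**Figure D4:**
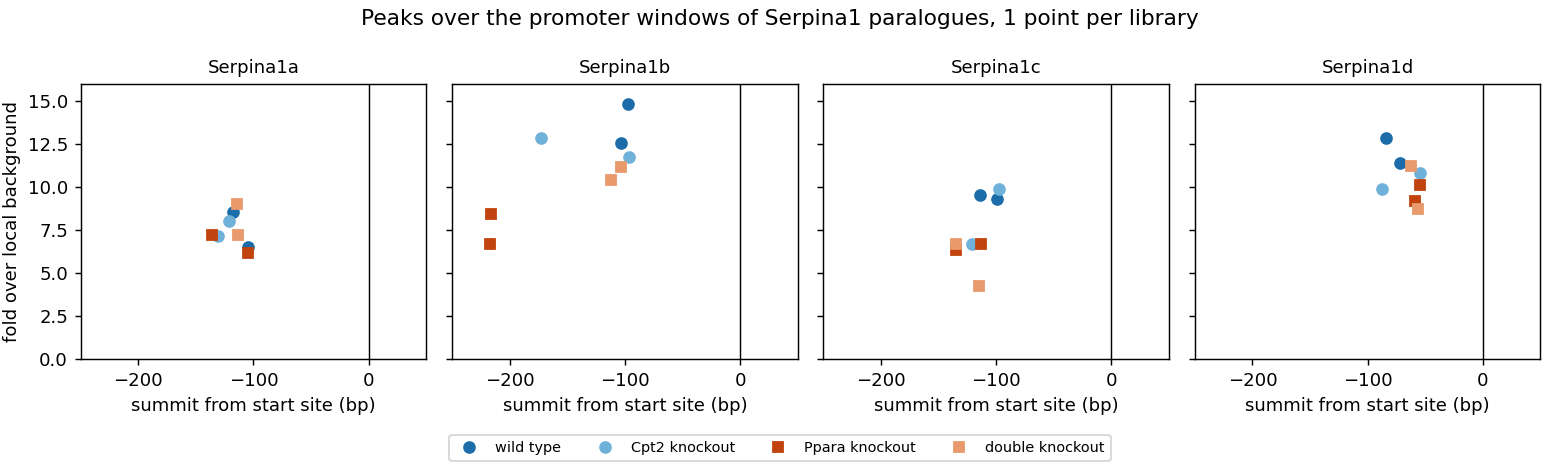
Peaks over the promoter windows of 4 Serpina1 copies, 1 point per library, with the summit's distance from the start site in bp (horizontal axis, the vertical line marks 0) and the deposited fold (vertical axis). At Serpina1b the Ppara knockout points, with folds of 8.47 and 6.69, lie at −216 and −217 bp, left of the other 6 libraries.

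Together with its promoter, Serpina1a had 7 regions, the most of any Serpin gene, and calls at several of the others differed between genotypes. A region 24951 bp from Serpina1a (chr12:103827978-103828344) was called with folds of 5.29 and 7.0 in wild type, 5.88 and 5.62 in Ppara knockout, and 6.37 and 6.79 in double knockout, and was not called in either Cpt2 knockout library. Another at 29029 bp (chr12:103823882-103824266) was called in all libraries except the Ppara knockouts, with folds of 4.38 to 9.25. A region inside the gene (chr12:103859636-103859932) was called in the Cpt2 knockouts alone, with folds of 4.0 and 4.61. One 1966 bp upstream (chr12:103865585-103865960), had folds of 5.44, 5.34, 6.01 and 4.11 in Ppara-intact libraries and 4.73 in double knockout 1. Serpina1c and Serpina1e had 6 regions each, of which 3 and 1 were called in 1 library alone.

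Several Serpina1 regions lay just past the 3′ end of the gene. Where the strand is given, 8 Serpin regions (8.1%) were within 2 kb past a 3′ end, against 1.7% of all regions given to a gene, a class that was defined after the data had been seen. Of these 8, 6 were at Serpina1a, Serpina1b, Serpina1c and Serpina1e, and the others at Serpina5 and Serpina3n. The Serpina1 copies are near-identical, so these 6 are not independent occurrences. None was called in all 8 libraries. Wild type libraries called 2 and 3 of the 8, Cpt2 knockouts 3 and 4, Ppara knockouts 3 and 6, and double knockouts 3 and 1. Ppara knockout 2 thus called the most, and 3 of the 8 were called in that library alone. Counts of Ppara-intact and Ppara-null libraries overlapped. Over all regions of this class the shares were 48.2% to 71.4% where Ppara was intact, and 31.3% to 39.7% where it was not.

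The region past Serpina1a (chr12:103851966-103852825, 470 bp from the gene) was called in both Cpt2 knockouts at folds of 3.95 and 4.31, both Ppara knockouts at 4.60 and 5.44, and double knockout 2 at 5.05. Neither wild type library had a peak there.

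Serpina6, which encodes corticosteroid-binding globulin, the carrier of glucocorticoids in blood, had 2 of the 7 regions with a peak in the 4 Ppara-intact libraries alone. A region over one end of the gene (chr12:103657103-103657553) had folds of 4.44 and 5.20 in wild type and 5.79 and 5.61 in Cpt2 knockout, and no peak in the 4 Ppara-null libraries. A second, 1963 bp beyond that end (chr12:103659181-103659544), had 5.30 and 6.92 in wild type and 5.60 and 7.64 in Cpt2 knockout, and none in the Ppara-null libraries. Both kept this division in equal-number lists. Inside the gene, a region at chr12:103655604-103655999 was called in all 8, at 6.61 and 5.09 in wild type, 7.51 and 5.44 in Cpt2 knockout, 4.39 and 4.20 in Ppara knockout, and 6.98 and 5.21 in double knockout. The locus therefore held regions of both kinds within 4 kb, and one 2901 bp away was called in both wild types and Cpt2 knockout 1.

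Among the antichymotrypsin copies, Serpina3k and Serpina3m carried regions in every library and Serpina3n did not. The region 784 bp from Serpina3m (chr12:104385863-104386373) had folds of 8.91 and 10.5 in wild type, 10.9 and 12.6 in Cpt2 knockout, 7.22 and 6.83 in Ppara knockout, and 10.9 and 8.74 in double knockout. The region 1166 bp from Serpina3k (chr12:104336476-104337320) had 8.38 and 9.42 in wild type, 8.23 and 8.07 in Cpt2 knockout, 7.20 and 4.01 in Ppara knockout, and 8.97 and 8.64 in double knockout. At both, the Ppara knockouts were lowest, and the double knockouts were within or just below the Ppara-intact range. The median fold over regions called in all 8 libraries was lower in every Ppara-null library, however. Ranked by fold within each library among regions called in all 8, the Ppara knockouts were no longer lowest at Serpina3m. Their percentiles were 54.5 and 58.4 there, against 40.9 to 77.2 in Ppara-intact libraries. At Serpina3k they were 54.1 and 4.8, against 19.5 to 38.7. A further region inside Serpina3m (chr12:104388555-104388807) was called in the 4 Ppara-intact libraries alone, at low folds of 4.20 and 3.59 in wild type and 3.05 and 4.03 in Cpt2 knockout.

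Serpina3n is an acute-phase inhibitor that inflammation and glucocorticoids induce in liver. Its start site was called in the 4 Ppara-intact libraries and no other (chr12:104406522-104406886), with folds of 5.65 and 5.36 in wild type and 6.29 and 5.65 in Cpt2 knockout. It was the 1 Serpin promoter window of 63 with this division (1.59%), against 1.98% of all 32851 windows. The window (chr12:104406458-104406757, plus strand) is shown with the stretch between the lowest and the highest summit in capitals, −43 to 3 bp from its start site, because it marks where this divided peak was centred.
Serpina3n: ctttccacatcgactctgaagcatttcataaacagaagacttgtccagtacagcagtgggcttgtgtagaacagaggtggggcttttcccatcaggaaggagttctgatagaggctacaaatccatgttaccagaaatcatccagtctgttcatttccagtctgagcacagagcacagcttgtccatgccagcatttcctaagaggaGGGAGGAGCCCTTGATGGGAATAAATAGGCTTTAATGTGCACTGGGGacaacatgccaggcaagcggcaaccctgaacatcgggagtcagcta

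A region 2307 bp upstream of Serpina3n (chr12:104403975-104404339) was called in 7 libraries, at 5.43 and 11.1 in wild type, 8.77 and 7.34 in Cpt2 knockout, 4.56 and 5.64 in Ppara knockout, and 6.73 in double knockout 1. In equal-number lists the start site region was called in 1 Ppara-intact library, so its division was not kept there.

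Serpina9, known from germinal-centre B cells, had 1 region, inside the gene (chr12:104002652-104003087). It was called in the 4 Ppara-intact libraries at 6.67 and 8.82 in wild type and 9.06 and 10.6 in Cpt2 knockout, and in 1 of them in equal-number lists. Serpina12, which encodes vaspin, had 6 regions, the strongest of them inside the gene (chr12:104041307-104042044) with folds of 11.4 and 12.5 in wild type, 11.3 and 13.6 in Cpt2 knockout, 5.94 and 6.83 in Ppara knockout, and 6.01 and 6.77 in double knockout. All 4 Ppara-intact folds at Serpina12 were above all 4 Ppara-null folds, but median folds were lower in the Ppara-null libraries as well. Per library, the median at regions called in all 8 was 9.26 to 11.3 on the Ppara-intact side, against 6.37 to 7.44.

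Serpina10, the protein Z-dependent inhibitor of activated clotting factor X, had a region 4357 bp away (chr12:103635847-103636278). Its folds were 10.99 and 12.2 in wild type and 13.5 and 11.1 in Cpt2 knockout. They were 6.08 and 5.35 in Ppara knockout and 8.43 and 8.60 in double knockout. Serpina5, the protein C inhibitor, had 5 regions and none in all 8 libraries. The strongest (chr12:104105853-104106237) had 7.03 and 8.58 in wild type, 9.05 and 8.12 in Cpt2 knockout, 4.83 in Ppara knockout 1, and 4.92 and 5.31 in double knockout. Clade a genes with no region were Serpina7, which encodes the thyroxine carrier, and Serpina3a, Serpina3b, Serpina3c, Serpina3g, Serpina3i and Serpina3j.

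Clade b had regions at 9 of its 28 genes, and large parts of its clusters had none. The 700 kb on chromosome 1 from Serpinb5 to Serpinb10, with 11 genes, held 1 region, near Serpinb13 and called in double knockout 2 alone. The 878 kb on chromosome 13 from Serpinb9b to Serpinb6c, also with 11 genes, held 2. The genes without a region were Serpinb2, Serpinb3a to Serpinb3d, Serpinb5, Serpinb6c, Serpinb6e, Serpinb7, Serpinb9b to Serpinb9h, Serpinb10, Serpinb11 and Serpinb12.

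At the open clade b genes, Serpinb6a, an intracellular inhibitor of cathepsin G, had 5 regions. The one over its start (chr13:34002064-34002976) had folds of 11.4 and 15.1 in wild type, 12.2 and 10.6 in Cpt2 knockout, 9.77 and 8.19 in Ppara knockout, and 10.9 and 8.45 in double knockout. It overlaps Ripk1 as well. Over the Serpinb6a promoter window at this start a peak lay in 6 libraries, and in neither Ppara knockout 1 nor double knockout 1. The summits of these peaks were 404 to 451 bp downstream of the start. One inside the gene (chr13:33964392-33964983), which also overlaps Nqo2, had 11.6 and 11.7 in wild type, 12.1 and 10.5 in Cpt2 knockout, 6.32 and 7.95 in Ppara knockout, and 6.20 and 6.39 in double knockout. Folds of the 2 groups overlapped at the start and did not overlap inside the gene. The median fold over regions called in all 8 libraries was, however, lower in every Ppara-null library. As percentiles of fold among regions called in all 8 libraries, the groups overlapped inside the gene as well. The Ppara-intact range there was 54.1 to 75.3 and the Ppara-null range 29.0 to 74.7.

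The highest single fold of any Serpin region was near Serpinb8, 5087 bp downstream (chr1:107614065-107614467), with 8.44 and 18.7 in wild type, 22.0 and 18.4 in Cpt2 knockout, 7.46 and 5.49 in Ppara knockout, and 9.42 and 8.44 in double knockout. Wild type 1 lay among the Ppara-null libraries there. The start of Serpinb9, the inhibitor of granzyme B, had 8.42 and 12.6 in wild type, 10.3 and 9.60 in Cpt2 knockout, 8.99 and 9.24 in Ppara knockout, and 7.88 and 6.07 in double knockout (chr13:33004402-33004968). The groups overlapped at Serpinb9. The 1 clade b region called in the Ppara-intact libraries alone was inside Serpinb1c (chr13:32903246-32903629), at 8.84 and 7.73 in wild type and 11.6 and 7.0 in Cpt2 knockout, and in 2 of them in equal-number lists.

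In clades c to i the clotting inhibitors were open in all genotypes. Serpind1, heparin cofactor II, an inhibitor of thrombin, had a region over its start (chr16:17331094-17331549), which also overlaps Pi4ka, with folds of 8.90 and 13.0 in wild type, 13.8 and 12.9 in Cpt2 knockout, 8.25 and 5.39 in Ppara knockout, and 7.40 and 5.13 in double knockout. Serpinc1, antithrombin, had 4 regions, and the one called in all 8 lay inside the gene (chr1:160986920-160987645) at 8.17 and 10.2 in wild type, 7.42 and 6.12 in Cpt2 knockout, 5.89 and 3.76 in Ppara knockout, and 8.24 and 7.19 in double knockout. The lowest Ppara-intact fold was above every Ppara-null fold at Serpind1, and the groups overlapped at Serpinc1. The median fold over regions called in all 8 libraries was lower in every Ppara-null library. As percentiles of fold among these regions, the groups overlapped at Serpind1 too, at 45.3 to 79.6 and 19.1 to 70.2.

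The start of Serpinc1 (chr1:160978208-160978691) was called in wild type 2 at 5.18 and in the Cpt2 knockouts at 4.34 and 5.04, and nowhere else. Both promoter windows are shown because one peak was present in every library and the other in 3. The windows are chr16:17331121-17331420 and chr1:160978333-160978632, both on the plus strand, and capitals run from the lowest to the highest summit, −126 to −1 bp at Serpind1 and −79 to −59 bp at Serpinc1.
Serpind1: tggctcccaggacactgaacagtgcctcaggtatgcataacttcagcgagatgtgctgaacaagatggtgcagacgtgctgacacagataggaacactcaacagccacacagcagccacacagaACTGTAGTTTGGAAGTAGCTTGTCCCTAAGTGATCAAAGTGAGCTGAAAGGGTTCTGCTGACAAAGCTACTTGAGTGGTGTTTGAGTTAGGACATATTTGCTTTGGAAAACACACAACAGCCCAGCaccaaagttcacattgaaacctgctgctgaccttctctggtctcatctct
Serpinc1: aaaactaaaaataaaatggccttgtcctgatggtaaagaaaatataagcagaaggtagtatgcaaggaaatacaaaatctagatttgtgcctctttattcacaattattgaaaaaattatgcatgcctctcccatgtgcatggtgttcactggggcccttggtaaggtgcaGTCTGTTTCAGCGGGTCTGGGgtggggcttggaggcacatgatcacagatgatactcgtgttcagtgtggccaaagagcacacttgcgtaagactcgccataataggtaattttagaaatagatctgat

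Serping1, C1 inhibitor, which restrains the first complement protease and plasma kallikrein, had 4 regions. One, 2115 bp from the gene (chr2:84762823-84763245), was called in the 4 Ppara-intact libraries alone, at 8.86 and 8.60 in wild type and 10.1 and 8.47 in Cpt2 knockout, and kept this division in equal-number lists. Another over the gene (chr2:84774659-84775672) was called in all 8, at 10.6 and 8.0 in wild type, 10.3 and 8.07 in Cpt2 knockout, 7.73 and 6.87 in Ppara knockout, and 6.40 and 5.78 in double knockout. As at Serpina6, a divided and an undivided region were found at 1 gene.

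An inhibitor of fibrinolysis was also called in all genotypes. At Serpinf2, alpha-2-antiplasmin, which blocks plasmin, the region called in all 8 (chr11:75431400-75431887) had 6.67 and 10.3 in wild type, 11.4 and 9.38 in Cpt2 knockout, 7.52 and 3.96 in Ppara knockout, and 5.18 and 6.12 in double knockout. The groups overlapped there. A region over the start of Serpinf1, pigment epithelium-derived factor, was called in wild type 2 and both Cpt2 knockouts, at 3.38 to 3.79. Another inside Serpinf1 (chr11:75421034-75421661) was called in the 4 Ppara-intact libraries at 3.79 to 4.26 and in Ppara knockout 1 at 4.18.

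Some genes of these clades had few calls. Serpinh1, a collagen chaperone, had 1 region, in wild type 1 alone, and Serpini1, neuroserpin, 1 in Ppara knockout 1 alone. Serpine2, protease nexin-1, had a region at its start in wild type 2 and Cpt2 knockout 1 and another inside the gene in Ppara knockout 1 and double knockout 1. Serpine3 and Serpini2 had none.

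Regions divided by Ppara status were those with a call in each of the 4 libraries on one side and no call on the other. In the Ppara-intact direction there were 7 of 99 (7.07%), against 6.82% of all regions, so the Serpin share was near the background. They were the regions given above: 2 at Serpina6 and 1 each at Serpina9, Serpina3m, Serpina3n, Serpinb1c and Serping1. In the Ppara-null direction there were 0, against 0.0686%. With equal-number lists the Ppara-intact count was 3 (3.03%; background 0.811%), namely both Serpina6 regions and Serping1. The Ppara-null count with these lists was 1 (1.01%; background 0.512%), the distal Serpina1a region that the Cpt2 knockouts lacked, whose wild type peaks were not among the strongest 18132. Leaving out wild type 1, which had the shortest Ppara-intact list, raised the count over all peaks from 7 to 12, with 11.85% of all regions divided in the same way.

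Per region, a two-sided exact permutation test of the call over the 70 orders of the libraries cannot go below p = 0.0286. This value was reached by 3418 regions, 7 of them Serpin regions. After Benjamini-Hochberg adjustment over all 49587 regions the smallest p was 0.415, so no region (0%) passed at 0.05.

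By Cpt2 status no Serpin region was called in all 4 Cpt2-null and none of the Cpt2-intact libraries, against 0.0968% of all regions, and none the other way, against 0.00605%. Pairs of genotypes were then compared by regions called in both libraries of one and neither of the other. With 2 libraries each, no exact test of a pair can reach 0.05, so counts stand beside the background share, and pairs that share a genotype are not independent.

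Between Cpt2 knockout and wild type, 2 Serpin regions were called in the knockout only (2.02%; background 3.63%) and 3 in wild type only (3.03%; background 0.512%). The former were the region inside Serpina1a and the one past its 3′ end. The latter were the distal Serpina1a region, a region 3077 bp from Serpina16 (folds of 5.12 and 7.49) and one at the start of Serpinb6b (4.42 and 4.44). This direction was not stable: with peaks of a −log10 q of at least 20, 3 regions were in the knockout only and 0 in wild type only. With equal-number lists there were 2 in the knockout only (background 0.918%) and 2 in wild type only (background 0.815%), all at other genes.

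Between Ppara knockout and wild type, 1 region was in the knockout only (1.01%; background 0.46%), the one past the 3′ end of Serpina1a, and 16 in wild type only (16.2%; background 13.6%). The 3 strongest of the latter by rank were the Serpina6 region at 1963 bp, a region 6470 bp upstream of Serpina1e (chr12:103963367-103963720, 6.22 and 8.18 in wild type) and the Serping1 region. With equal-number lists the split was nearly even, 3 in the knockout only (3.03%; background 2.38%) and 4 in wild type only (4.04%; background 3.44%).

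Between double knockout and wild type, 0 were in the double knockout only (background 1.2%) and 16 in wild type only (16.2%; background 12.9%), led by the Serpina6 and Serping1 regions. With equal-number lists it was 3 (background 3.08%) and 3 (background 3.35%), so the one-sided split was not kept.

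Between double knockout and Cpt2 knockout, 1 region was in the double knockout only (1.01%; background 0.597%), the distal Serpina1a region, and 16 in the Cpt2 knockout only (16.2%; background 20.4%), again led by Serpina6 and Serping1. With equal-number lists these counts also became even, 3 (background 2.61%) and 3 (background 2.99%).

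Between double knockout and Ppara knockout, 2 were in the double knockout only (2.02%; background 2.33%), inside Serpinb6b (chr13:32969593-32970051, 4.99 and 5.82 in double knockout) and 29029 bp from Serpina1a. A single region, 605 bp from Serpina3k, was in the Ppara knockout only (1.01%; background 1.45%), at 3.48 and 4.96. With equal-number lists the counts were 2 (background 2.03%) and 2 (background 1.84%). The 5 pairs share genotypes, so a region such as the Serpina6 one at 1963 bp appears in 3 of them.

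At regions called in all 8 libraries, the fold can be ranked within each library over the same 11258 regions, which removes differences in list length. Of the 19 Serpin regions, 0 had a percentile higher in all Ppara-intact than in all Ppara-null libraries, against 5.36% of the 11258. One (5.26%) had it the other way, against 6.68%, and this was the Serpina1a promoter. Its percentile was 16.1 and 21.8 in wild type, 17.9 and 18.2 in Cpt2 knockout, 35.6 and 64.8 in Ppara knockout, and 46.8 and 79.6 in double knockout. The fold of the Serpina1a promoter was thus similar in both groups, while the median fold of regions called in all 8 was lower in Ppara-null libraries. Ranked by −log10 p instead, 1 region of the 19, Serpina12, was higher in all Ppara-intact libraries (5.26%; background 5.77%). The other 3, Serpina1a, Serpinb9 and the Serpinb6a start, were higher in all Ppara-null ones (15.8%; background 6.82%). This ranking was chosen after the data had been seen.

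**Figure D5:**
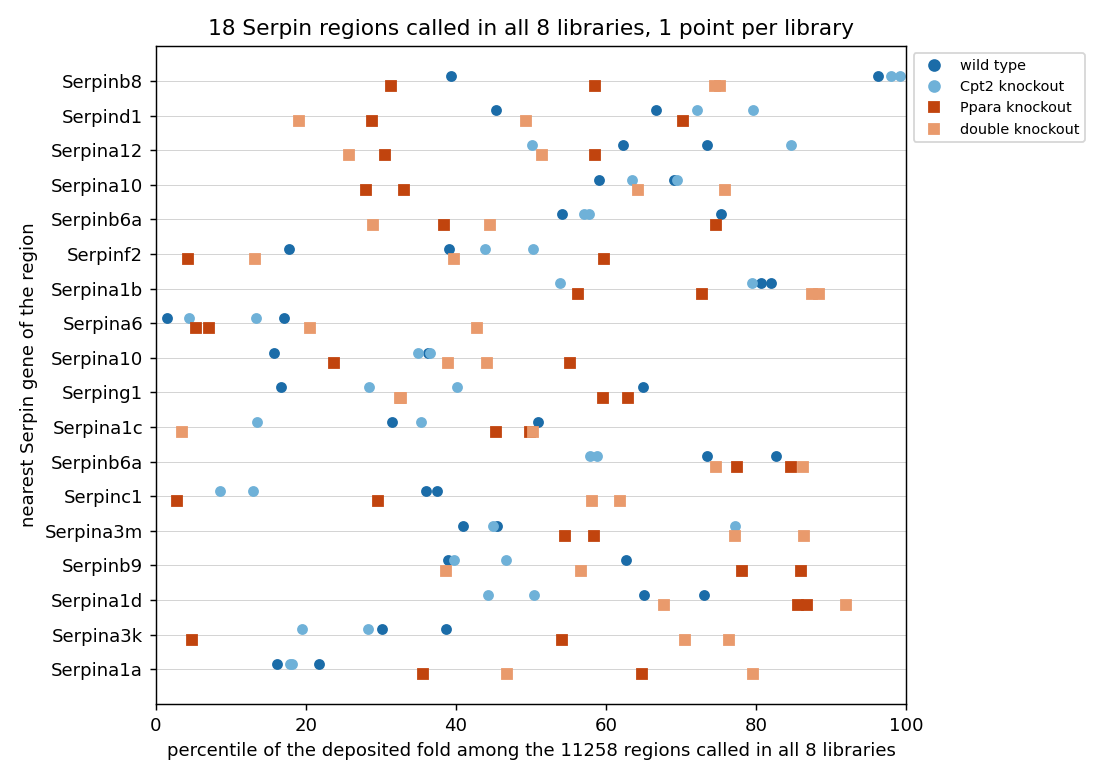
Percentile of the deposited fold (horizontal axis) among the 11258 regions called in all 8 libraries, for 18 of the 19 Serpin regions among them (rows), with 1 point per library, circles for Ppara-intact and squares for Ppara-null. In the bottom row, the Serpina1a promoter, the circles lie at 16.1 to 21.8 and the squares at 35.6 to 79.6; in the other rows circles and squares overlap.

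Other genes of the same systems were taken from a list. Agt encodes angiotensinogen, a secreted serpin that inhibits no protease and is the source of angiotensin. It had 3 regions, 1 called in all 8 libraries and 2 in the 4 Ppara-intact ones alone (background 6.82%). The one 2006 bp from Agt (chr8:124571712-124572090) had folds of 5.19 and 6.42 in wild type and 5.51 and 4.40 in Cpt2 knockout, and kept its division in equal-number lists (background 0.811%). The other (chr8:124567548-124567921) had 3.45 and 3.22 in wild type and 4.35 and 3.27 in Cpt2 knockout.

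Of 26 target proteases and cofactors of serpins, 23 had regions, 81 in all. A region called in every library was found at 15 of these genes, among them F2, F7, F10, F11, F12, Plg, Klkb1 and Masp1, which encode proteases of clotting, fibrinolysis, the kinin system and complement. Of the 81 regions, 22 (27.2%; background 22.7%) were called in all 8 libraries, 11 (13.6%; background 6.82%) in the Ppara-intact libraries alone and 0 in the Ppara-null ones alone (background 0.0686%). With equal-number lists 2 of the 81 were called in the Ppara-intact libraries alone (2.5%; background 0.811%). The 11 lay at F3, Hpn and Masp1 with 2 each, and at F9, Masp2, Proc, Prtn3 and Tmprss6 with 1 each. The strongest of them was 15994 bp from F3, the tissue factor gene (chr3:121707099-121707543), at 15.5 and 18.4 in wild type and 18.8 and 23.5 in Cpt2 knockout.

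Over promoters as a class, 54 of the 63 Serpin genes had a RefSeq promoter entry, with 63 windows. A peak in all 8 libraries lay over 6 windows (9.5%), those of Serpina1a, Serpina1b, Serpina1c, Serpina1d, Serpinb9 and Serpind1, against 18.9% of all 32851 windows. No peak in any library lay over 46 (73.0%), against 62.6%. Motifs were searched as exact letters on both strands. The FoxA letters TGTTTAC or TGTTTGC were in 10 Serpin windows (15.9%), against 8.48% of all, and all 5 Serpina1 copies were among the 10. The AP-1 letters TGAGTCA were in 6 (9.5%; 5.2% of all), including Serpina1a to Serpina1d. GTTAAT was in 12 (19.0%; 7.1% of all), again with all 5 Serpina1 copies. It was searched for after it had been seen in the run that these 5 share, so those hits were fixed in advance. The Serpina1 copies are near-identical, so they are not independent occurrences, and they raise all of these shares. The windows of Serpina3f (FoxA letters) and of Serpina7 (GTTAAT) overlap each other within the gene, so the same site was counted in both. A higher frequency of these letters over the family as a whole cannot be read from the shares.

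The longer HNF1 letters GTTAATNAT, which contain GTTAAT, were in 1 Serpin window (1.6%; 0.8% of all), at Serpini2. The C/EBP letters TTGCGCAA or TTGCACAA were in 1 (1.6%; 1.19% of all), at Serpina5. The HNF4 letters CAAAGTCCA were in 0 (0.47% of all). The DR1 letters, 2 copies of AGGTCA with 1 free base between, to which PPAR alpha binds, were in 0 (0.04% of all), and a window of 300 bases without these letters says nothing of binding elsewhere.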

How the data were processed

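Per the labels, ATAC-seq was done on liver of 4 mouse genotypes with 2 libraries each. Per the file headers and peak names, the authors called peaks separately per library with MACS2 on mm10, and the submitters' processing notes list BWA, MACS2 2.1.0 and mm10. Treatment of duplicate reads and any Tn5 offset are not given in the sources used here. Each deposited list gives per peak a score, a fold (ratio of summit pileup to local background) and −log10 p and q values, and a further deposited table gives consensus positions, whose merging is not stated. No read counts were used, so read depth is unknown.

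Regions were matched to peaks (1 bp overlap; the strongest peak by −log10 p gives the values) and to the nearest of 21900 RefSeq protein-coding genes on GRCm38.p6. Calls were compared by counts beside the background and by an exact permutation test with Benjamini-Hochberg adjustment. Folds are described per library without a test, and at regions called in all 8 libraries their percentiles were compared by whether the groups overlapped. The assignment and counting were tested on simulated data. Named regions were those divided by Ppara or Cpt2 status, the 5 top-ranked regions called in all 8 libraries per clade group, the 3 top-ranked per pair and direction, and genes with 5 or more regions; other regions were chosen after their values were seen. Counts cover all members, but 1 Serpin gene and 1 marker list are not reported here by name. The members and lists were chosen with earlier results of these data known. Alternatives were equal-number lists, −log10 q of at least 20, 50% cover, a 10 kb limit, the replicate block and leaving out each library. Python 3.11.15, NumPy 2.4.6, pandas 2.3.3, SciPy 1.17.1, Biopython 1.88 and matplotlib 3.10.9 were used.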

Additional observations from a re-analysis of the deposited data

Results flagged for a closer look

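Among the 4 Ppara-null libraries, the share of clade a regions with a peak was 27.4% in double knockout 2, apart from 38.7% and 37.1% in the Ppara knockouts and 38.7% in double knockout 1. The gap to the nearest of the others was large relative to the range of the group by Dixon's criterion, which chance alone meets in about 1 group in 20. Its share over all regions was 35.5%, close to the 35.6% of Ppara knockout 2, and their lists held 18132 and 18283 peaks. At clade b regions the share was 42.9% in both double knockout libraries and 28.6% in both Ppara knockout libraries. As double knockout 2 has the shortest list, its equal-number list is its full list, with the same 17 clade a regions. In equal-number lists the Ppara knockouts called 23 and 23 and double knockout 1 called 21. The Ppara-intact libraries called 15 (Cpt2 knockout 2) to 24 (wild type 1), so 17 was not the lowest of the 8.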

How the results depend on the processing

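The count of Serpin regions divided by Ppara status was 7, became 4 with equal-number lists (3 Ppara-intact, 1 Ppara-null) and ranged from 7 to 12 without 1 library. At single regions, the number of Ppara-intact minus Ppara-null libraries with a call fell from 4 to 1 at Serpina9 and Serpina3n, 0 at Serpina3m and 2 at Serpinb1c with equal-number lists. The count by Cpt2 status was 0, and 0 to 1 without 1 library. For pairs, equal-number lists gave 7 regions for Ppara knockout against wild type (3 knockout only and 4 wild type only; 17 with all peaks, 1 and 16), 6 for double knockout against wild type (3 and 3; 16 with all peaks, 0 and 16) and 6 for double knockout against Cpt2 knockout (3 and 3; 17 with all peaks, 1 and 16). Without 1 library these ranged from 22 to 35, 20 to 33 and 21 to 39. Cpt2 knockout against wild type gave 5, with 3 at −log10 q of at least 20, where the direction turned, and 8 to 14 without 1 library. The direction also turned without wild type 2 (14) and without Cpt2 knockout 2 (14). Double knockout against Ppara knockout gave 3, and 7 to 12 without 1 library, turning without Ppara knockout 1 (12), Ppara knockout 2 (7) and double knockout 1 (9). The causes were not tested, except that fewer libraries make the rule easier to meet. The gap between the groups' Serpin shares was 32.83 percentage points, and 0.51 with equal-number lists. Percentiles of −log10 p in place of fold gave 4 separated regions in place of 1.

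Libraries share only replicate numbers: the difference between replicate 1 and replicate 2 in calls correlated between genotypes at −0.031 to 0.026 (Pearson's r across 49587 regions). With the replicate block, 36 orders remained, the smallest exact permutation p was 0.0556 and 0 regions were below 0.05, in place of 3418. No blocked test of the counts was made, as they come from no test. Peak calls hold no depth, so a missing call is not an absence of open chromatin.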
